A study of Mus musculus with 111 samples.

Results

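The genes examined were Pmch, Parpbp and Hcrt, 3 of the 54087 gene rows counted in every RNA-seq library of the mouse tuberomammillary nucleus (TMN), a posterior hypothalamic nucleus that holds the histaminergic neurons. They were taken by name, since Pmch and Hcrt encode the peptides of 2 neighbouring hypothalamic cell types and Parpbp lies across Pmch on the other DNA strand. All 3 passed the filter on low counts, with 13891 rows tested in all. Adult C57BL/6 mice (C57BL/6J in the methods of the study), housed in light and darkness of equal length, had an adeno-associated virus (AAV) infused into the TMN on both sides, and tissue was taken at ZT0, ZT4, ZT8, ZT12, ZT16 or ZT20, where zeitgeber time (ZT) counts hours from lights on. The GFP group received an empty vector with GFP alone, the H3.3 group received tagged wild-type histone H3.3, and the Q5A group received the tagged H3.3 mutant in which alanine replaces glutamine 5, a residue that can carry serotonin or histamine. All 3 vectors carried GFP behind an internal ribosome entry site, and virally infused tissue was microdissected under light that excites GFP, so that the bounds of each sample followed the spread of the virus. GFP gave 32 libraries, H3.3 gave 39 and Q5A gave 39, in 18 groups of 4 to 8 libraries and in 3 cohorts. Virus and cohort were not balanced. Cohorts 1, 2 and 3 held 24, 10 and 5 H3.3 libraries and 26, 10 and 3 Q5A libraries. GFP had 28 libraries in cohort 1, 4 in cohort 2 and none in cohort 3. The GFP and H3.3 libraries together are called controls, as in the design of the study.

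Neurons that make melanin-concentrating hormone (MCH) and neurons that make orexin lie intermingled in the lateral hypothalamus, rostral and lateral to the TMN, and each type is largely separate from the other. Pmch encodes the precursor of MCH, a peptide linked with feeding and with rapid eye movement sleep. Hcrt encodes the precursor of orexin A and orexin B (hypocretins), which sustain wakefulness and excite histaminergic neurons. Parpbp encodes a PARP1-binding protein that acts in DNA repair and restrains homologous recombination.

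The overlap of Pmch and Parpbp bears on every value below. In GRCm38, Pmch (ENSMUSG00000035383) occupies chr10:88091072-88092375 on the plus strand, with 3 exons of 749 bases in total. Parpbp (ENSMUSG00000035365) runs from 88146941 down to 88091432 on the minus strand of the same chromosome, with 11 exons of 3594 bases. Exons 2 and 3 of Pmch, together 435 bases or 58.08% of its exonic length, lie inside exon 11 of Parpbp, which is 1755 bases long and of which 329 are coding. Exon 1 of Pmch, 314 bases long, meets no exon of Parpbp. Hcrt (ENSMUSG00000045471) lies on another chromosome, at chr11:100761069-100762931 on the minus strand, with 3 exons of 749 bases and with no exon of any other annotated gene across it on either strand. The MCH peptide itself is encoded by 57 bases between 88091877 and 88092186, and all 57 lie inside exon 11 of Parpbp.

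**Figure D1:**
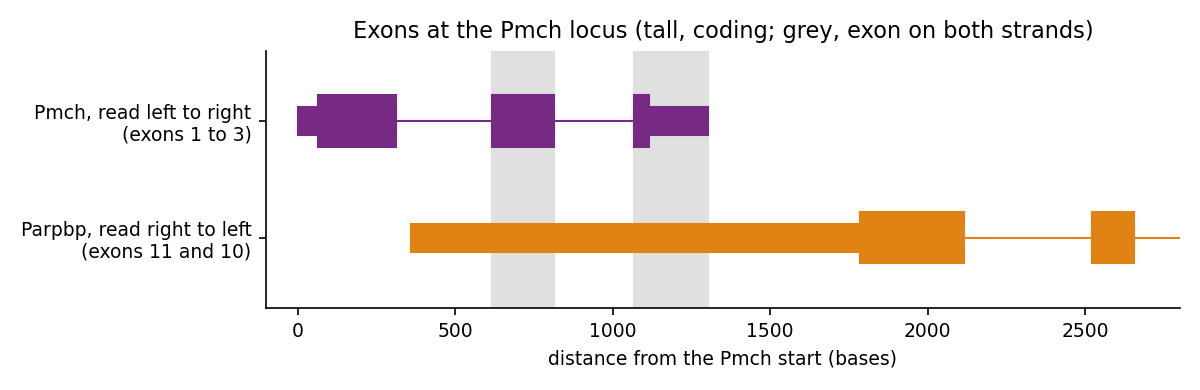
Exons of Pmch (top) and the end of Parpbp (bottom), with the distance from the Pmch start in bases on the horizontal axis; tall boxes are coding, low boxes are untranslated and grey bands mark exons present on both strands. Exons 2 and 3 of Pmch fall within exon 11 of Parpbp, and exon 1 does not.

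The sequences shown are the splice junction at which Pmch passes from the exon free of Parpbp into the exon under it, and the first 30 coding bases of MCH, which lie wholly under it. In the first, capitals mark exon 2 (chr10:88091371-88091702 across the intron, plus strand); in the second, capitals mark exon 3 (chr10:88091877-88092159 across the intron, plus strand).
Pmch junction of exons 1 and 2: aataagaattcaaagAACACAGGCTCCAAA
Pmch first coding bases of MCH: gattttgacaTGCTCAGGTGTATGCTGGGA

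The 100 bases before the start of each gene are shown because the 3 rows moved together from animal to animal. They come from the RefSeq promoter table of GRCm38.p6, in which all 3 genes had an entry, and capitals mark the motif TATAAA, searched on both strands.
Pmch (chr10:88090972-88091071, plus strand): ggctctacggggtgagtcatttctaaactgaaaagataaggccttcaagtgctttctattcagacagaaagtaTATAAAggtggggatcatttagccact
Hcrt (chr11:100762932-100763031, minus strand): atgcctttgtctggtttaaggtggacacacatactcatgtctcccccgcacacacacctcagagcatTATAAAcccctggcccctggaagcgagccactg
Parpbp (chr10:88146942-88147041, minus strand): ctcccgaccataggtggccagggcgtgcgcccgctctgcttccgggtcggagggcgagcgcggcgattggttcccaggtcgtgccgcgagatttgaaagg
TATAAA began 27 bases before the Pmch start and 33 bases before the Hcrt start, and did not occur in the Parpbp window. The same letters were found in 5.56% of 32851 promoter windows of this length. CG dinucleotides numbered 1 in the Pmch window, 2 in the Hcrt window and 13 in the Parpbp window, against a median of 3 over all windows. The promoter sequences of Pmch and Hcrt thus shared a TATA motif and a number of CG dinucleotides below the median, and the Parpbp promoter, far from the overlap, had neither feature. Any link between these features and the counts was not tested.

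Depth was modest. A library held between 673306 and 3375352 reads in gene rows (median 1474422.5), and gene rows held 3.49% to 5.64% of the reads that fell either in a gene row or in no gene, here called the gene share. The libraries were made with the Illumina Stranded mRNA Prep, Ligation kit. The authors counted them with the option that keeps a read only when it lies on the strand of the gene. In kits that mark the second strand, the first read runs against the transcript, and this option then assigns reads to the gene on the other strand. Where exons of Pmch and Parpbp overlap, counting by strand puts reads from the 2 strands into separate rows. Assigned to the other strand, reads of Pmch transcripts would fall in the Parpbp row there, and reads of Parpbp transcripts in the Pmch row. Whether this holds for the present reads was not tested, since the reads themselves were not examined. The Parpbp row is therefore not read here as the level of Parpbp transcripts, nor the Pmch row as that of Pmch transcripts. The same limit holds for the count of every gene given here, low counts included.

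Parpbp was the most abundant and the most variable of the 3 rows. It was the second most abundant row of the whole library in 47 of 110 libraries and among the 5 most abundant rows in 71. Its share of gene reads ran from 0.00303% to 5.13% with a median of 1.28%, and its raw count ran from 22 to 80249. Pmch ran from 0 to 1205 reads with a median of 70.5, and Hcrt ran from 0 to 862 reads with a median of 36. Parpbp exceeded both in 110 of 110 libraries. Per kilobase of exon, the median normalised count (the count divided by the size factor of the library) was 5062 for Parpbp, 88.8 for Pmch and 43.5 for Hcrt.

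The spread lay within the groups. Between the lowest and the highest library the normalised count of Parpbp differed 1992-fold. The SD of log2(normalised count + 1) around the group means was 3.07 for Parpbp, the highest of the 13891 rows tested. It was 2.48 for Hcrt, with 1 row above it, and 2.02 for Pmch, with 11 rows above it, against a median of 0.588 over all rows. Low libraries occurred under each virus, at each ZT and in each cohort. Parpbp was under 1000 reads in 20 libraries, namely 6 of 32 GFP, 9 of 39 H3.3 and 5 of 39 Q5A, and these came from 14 of the 18 groups. In those 20 libraries Pmch had at most 9 reads and Hcrt at most 2, with Hcrt at 0 in 11 of them. Among the other 90 libraries Hcrt was at 0 in 1. Values of Parpbp filled the range without a clear break, the widest step between neighbouring libraries being 1.15 on the log2 scale. In bulk tissue, fewer cells of a type and less RNA per cell cannot be told apart.

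**Figure D2:**
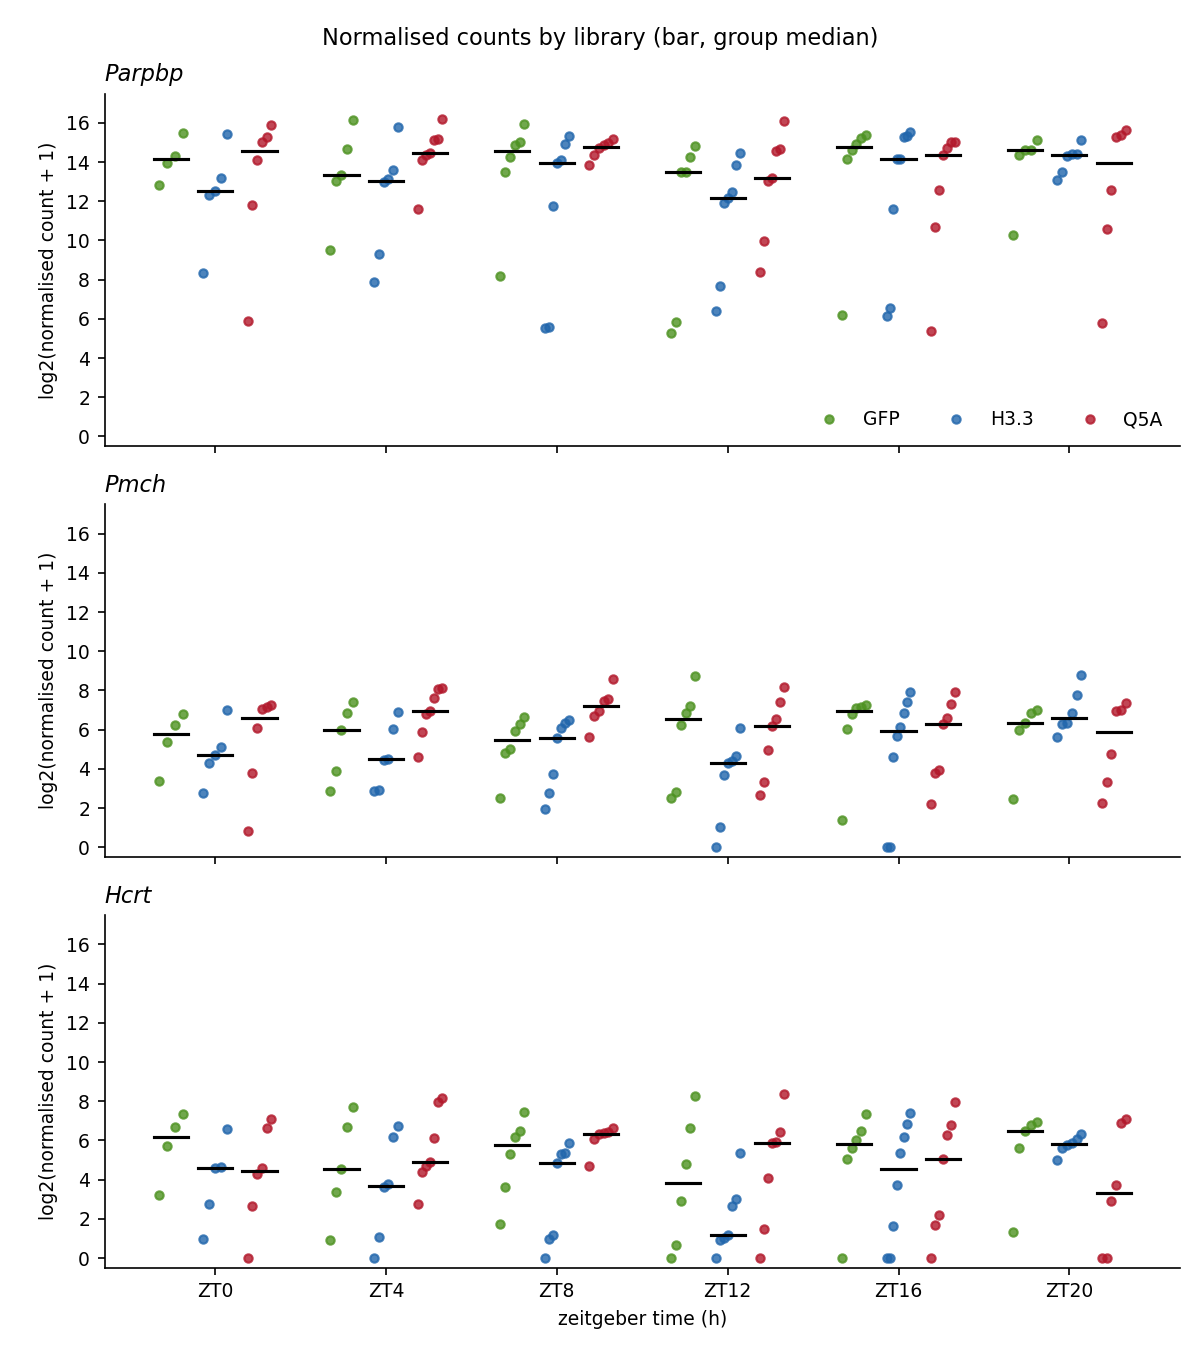
Normalised counts of Parpbp, Pmch and Hcrt in each of 110 libraries, as log2(normalised count + 1) against ZT; colours are the viruses and bars are group medians. Within most groups the libraries spread over much of the full range, and the low libraries of 1 row are low in the other rows too.

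Group by group, the order of the means was not separated by the replicates. For Pmch the highest mean was 169 ± 115 in Q5A ZT8 (SD, n = 6) and the lowest 20.2 ± 22.1 in H3.3 ZT12 (SD, n = 7). For Parpbp the highest was 30196 ± 22479 in Q5A ZT4 (SD, n = 7) and the lowest 7490 ± 8436 in H3.3 ZT12. For Hcrt the highest was 97.4 ± 117 in Q5A ZT4 and the lowest 8.02 ± 14.5 in H3.3 ZT12. H3.3 ZT12 was thus the lowest group for all 3 rows. In each ordering, all 17 pairs of neighbouring groups overlapped in range, and the widest gap between neighbours was 0.563 SD for Pmch, 0.447 SD for Parpbp and 0.811 SD for Hcrt. The SD was larger than the mean in 11 groups for Hcrt, 7 for Pmch and 6 for Parpbp.

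The GFP libraries show the pattern in single animals. At ZT0 the 4 GFP libraries held 45364, 20233, 16108 and 7401 normalised counts of Parpbp. The same libraries, in the same order, held 112, 40.5, 74.2 and 9.31 of Pmch, and 159, 50.8, 101 and 8.14 of Hcrt. The first library was thus the highest and the fourth the lowest in every row. At ZT4 the 5 GFP libraries held 8487, 72704, 10382, 737 and 26376 of Parpbp. Their Pmch values were 14.1, 172, 63.0, 6.23 and 113, and their Hcrt values 9.37, 204, 22.5, 0.890 and 103. All 3 rows ranked these 5 libraries in the same order. At ZT20 the 5 GFP libraries held 1238, 24920, 25490, 21324 and 36327 of Parpbp, with 4.53, 63.1, 81.4, 115 and 126 of Pmch and 1.51, 48.6, 108, 123 and 88.1 of Hcrt. Here 1 library was far below the other 4 in all rows.

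In H3.3 at ZT0 the 5 libraries held 44098, 5043, 9474, 5815 and 318 of Parpbp. Their Pmch values were 128, 25.4, 33.6, 18.8 and 5.90, and their Hcrt values 93.5, 23.8, 22.8, 5.78 and 0.983. One library stood above the rest and the cohort 2 library stood below them, in each row. The larger groups behaved alike: in Q5A at ZT0, 6 libraries ran from 58.0 to 61017 of Parpbp (median 25512), from 0.753 to 150 of Pmch (median 99.9) and from 0 to 138 of Hcrt (median 20.8). Q5A at ZT8 was the tightest group for Parpbp, with 6 libraries from 14927 to 37212 and a median of 28234.

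The 3 rows rose and fell together across libraries. Parpbp and Pmch correlated with Pearson r = 0.89 and Spearman rho = 0.83 (n = 110), Parpbp and Hcrt with r = 0.88 and rho = 0.86, and Pmch and Hcrt with r = 0.90 and rho = 0.86, on log2(normalised count + 1). Each of these 3 relations had a 2-sided permutation p of 1e-05, the smallest that 100000 resamples can give, and the same value after Benjamini-Hochberg adjustment over the 3 pairs. Without the 2 libraries farthest from the median of the first gene, r was 0.90, 0.88 and 0.90 in the same order. Hcrt shares no exon with either of the other genes, and its r with Parpbp was 0.88 where that of Pmch was 0.89; the difference between these was not tested.

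The cohorts gave the same picture. In cohort 1 (n = 78) r was 0.90 for Parpbp and Pmch, 0.90 for Parpbp and Hcrt and 0.90 for Pmch and Hcrt. In cohort 2 (n = 24) the values were 0.84, 0.82 and 0.90, each with a permutation p of 1e-05. In cohort 3, with 8 libraries, they were 0.95, 0.96 and 0.97, with exact permutation p of 0.00898, 0.00265 and 0.00327. By virus, r between Parpbp and Hcrt was 0.90 in GFP, 0.88 in H3.3 and 0.87 in Q5A, and r between Parpbp and Pmch was 0.86, 0.90 and 0.91. The relation was thus present within each virus and each cohort.

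**Figure D3:**
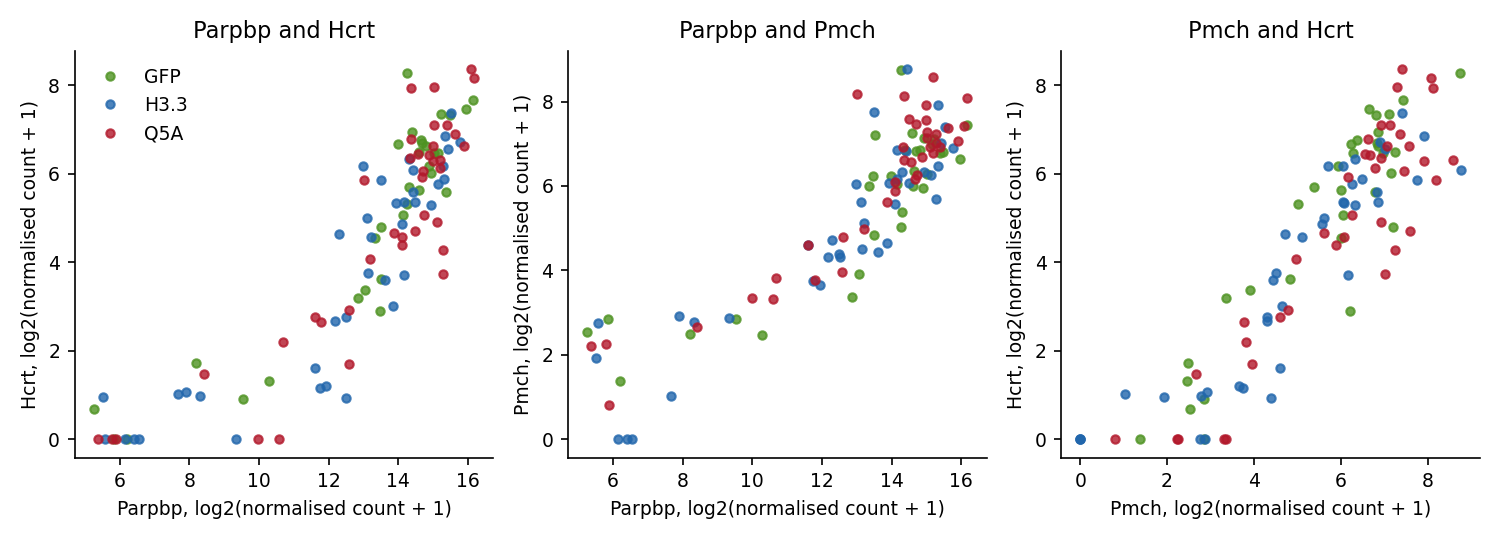
Each pair of the 3 rows across 110 libraries, both axes as log2(normalised count + 1), 1 point per library, coloured by virus. The points rise together with r = 0.88, 0.89 and 0.90 from left to right, and the 3 viruses share the same band.

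Although they rose together, the proportion of Pmch to Parpbp was not fixed. In the 90 libraries with at least 1000 Parpbp reads there were 0.357 Pmch reads per 100 Parpbp reads at the median, with quartiles of 0.259 and 0.546 and a range of 0.126 to 3.49. For Hcrt the median was 0.216 per 100 Parpbp reads, ranging from 0 to 1.58. The proportion moved with the gene share: the log2 ratio of Pmch to Parpbp rose with it with r = 0.72 and rho = 0.57 (n = 90, 2-sided permutation p = 1e-05, adjusted over 4 relations with depth measures 2e-05). Without the 2 libraries farthest from the median share, r was 0.62. In cohort 1 (n = 62) r was 0.72 and in cohort 2 (n = 22) it was 0.88. In cohort 3, with 6 libraries, r was 0.74, with an exact permutation p of 0.0931. For Hcrt to Parpbp r was 0.54 and rho 0.51 (adjusted permutation p = 2e-05). Within cohorts that r was 0.43 in cohort 1, 0.67 in cohort 2 and -0.14 in cohort 3, so that it did not hold in the 6 libraries of cohort 3.

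The level of Parpbp itself moved less with depth. Its correlation with the gene share was r = 0.22 and rho = 0.30 (n = 110, permutation p = 0.0217, adjusted 0.0289), and within cohorts r was 0.27, 0.16 and 0.48. With the total count it was r = 0.18 and rho = 0.16 (permutation p = 0.056), and 0.10 without the 2 farthest libraries.

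**Figure D4:**
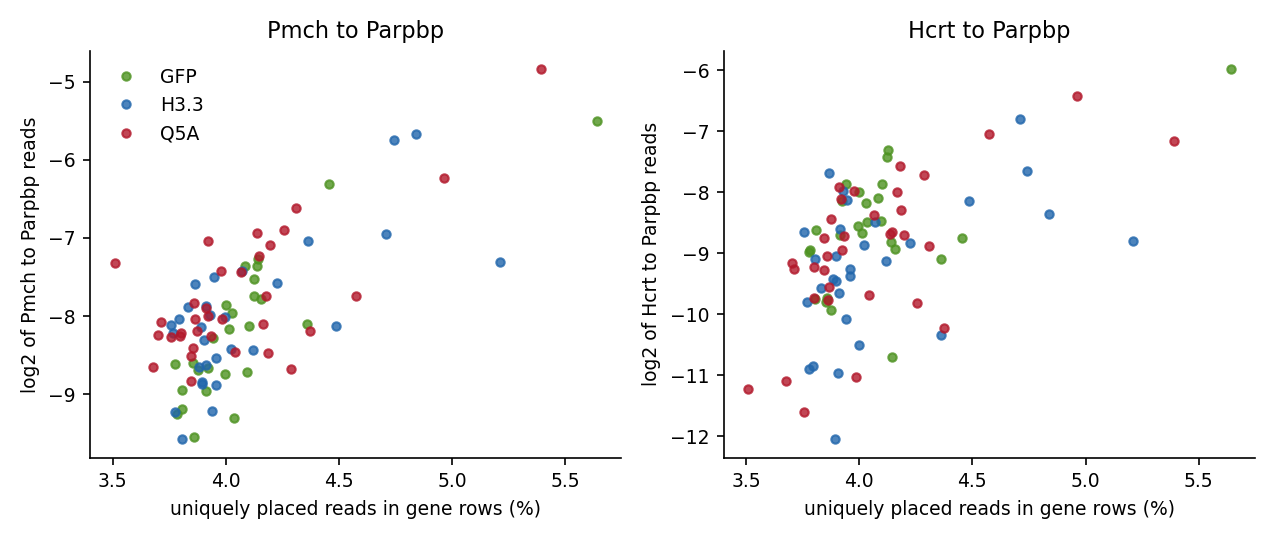
Log2 ratio of Pmch reads (left) and Hcrt reads (right) to Parpbp reads, against the gene share in percent, for the 90 libraries with at least 1000 Parpbp reads; 0.5 was added to each count. The ratio of Pmch to Parpbp rises with the gene share (r = 0.72), and that of Hcrt rises less closely (r = 0.54).

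The rows whose pattern over the 110 libraries was most like that of each gene were found by Spearman rho, as a description. Beside each other, the 3 genes had 13 such rows among their lists of 10, and Cartpt, Plagl1 and C1ql3 were in all 3 lists. For Pmch the closest were Scg2 (rho = 0.77), a secretogranin of dense-core vesicles, Cartpt (0.71), the precursor of the CART peptide that many MCH neurons contain, Nptx2 (0.69), a neuronal pentraxin known from orexin neurons, Celf4 (0.67), an RNA-binding protein, and Pdyn (0.61), the precursor of dynorphin, which orexin neurons co-release. Gfra2, a co-receptor of neurturin, Plagl1, an imprinted zinc-finger factor, and C1ql3, a secreted synaptic protein, completed the list with rho of 0.61, 0.60 and 0.59. For comparison, the median rho with Pmch over all rows tested was 0.04 and the 99th percentile was 0.44. These rows had far fewer reads than Parpbp, with median counts of 305.5 for Scg2, 13 for Cartpt, 8 for Nptx2 and 5 for Pdyn.

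For Parpbp the list after Hcrt and Pmch was RP23-415C3.5 (rho = 0.74), RP23-415C3.6 (0.73), Nespas (0.72), Plagl1 (0.71), C1ql3 (0.68), Pter (0.65), Cartpt (0.64) and Adra2a (0.64). For Hcrt it was Nespas (0.72), RP23-415C3.5 (0.72), Scg2 (0.70), RP23-415C3.6 (0.69), C1ql3 (0.67), Nptx2 (0.64), Plagl1 (0.63) and Cartpt (0.63). The median rho over all rows was -0.01 with Parpbp and 0.01 with Hcrt. The lists of Parpbp and Hcrt thus had rows with no part in the list of Pmch, among them Nespas, the antisense transcript of the imprinted Gnas locus, with a median of 1863 reads. Nespas (chr2:174281237-174295436, minus strand) carries exons opposite exons of Gnas. Pter (chr2:12924041-13003455, plus strand) and C1ql3 (chr2:13003457-13011806, minus strand) end 1 base apart and point toward each other. Of the 11 such rows with a position, 3 had an exon opposite another annotated gene, against 19.9% of all annotated rows. The clone-named rows RP23-415C3.5 and RP23-415C3.6 matched no annotated gene and have no position here.

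Known partner genes of the 2 peptides were read as whole lists. Of 6 genes known from MCH neurons, all 6 were tested, and their median rho with Pmch was 0.39, from 0.17 for Gad1 to 0.77 for Scg2. Slc17a6, the vesicular glutamate transporter of these cells, had 0.34. Of 7 genes known from orexin neurons 6 were tested, with a median rho with Hcrt of 0.49, from -0.18 for Qrfp to 0.70 for Scg2. Rfx4, a transcription factor, had 0.46 and Pdyn 0.52. The median rho of the orexin-neuron list with Pmch was 0.52, so the list was not particular to Hcrt. That of the MCH-neuron list with Hcrt was 0.29. The rows of the receptors of both peptides held few reads, under the same limit on strand: Mchr1 had a median of 2 reads, Hcrtr1 of 2 and Hcrtr2 of 1, and none of these 3 was tested.

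Marker lists of other cell types had lower median rho, without a test of the difference. Where another gene lies opposite a marker (Agrp, P2ry12 and Cga), the opposite row was read with the list. The median rho with Hcrt was 0.09 for 5 tested histaminergic genes, 0.15 for 4 tested genes of the mammillary and subthalamic area, 0.05 for 3 astrocyte genes, -0.10 for 3 oligodendrocyte genes and 0.00138 for 4 neuronal genes. Hdc, which makes histamine and defines the TMN, had a median of 4 reads in its row and none in 11 libraries, a count under the limit on strand given above, and its rho was 0.24 with Parpbp and 0.09 with Hcrt. Slc18a2, the vesicular monoamine transporter, had a negative rho with each row, from -0.27 to -0.31. It was the only tested gene of its list to do so. With Pmch, rho was 0.30 for Maob, 0.22 for Gad2, 0.21 for Hdc and 0.17 for Gad1. With Hcrt, rho was 0.21 for Maob, 0.19 for Gad2 and 0.09 for Gad1. With Parpbp, rho was 0.12 for Maob, -0.05 for Gad2 and -0.13 for Gad1. Midbrain dopamine genes had a median rho of -0.04 with Hcrt, those of the arcuate nucleus 0.04, those of microglia 0.01 and those of the pars tuberalis and pituitary -0.00460. Of 3 markers of choroid plexus and ependyma, 1 was tested (Foxj1, rho with Hcrt 0.00890). Summed over the list, orexin-neuron genes spanned 131 to 1178 normalised counts in GFP, 89.0 to 679 in H3.3 and 102 to 934 in Q5A, so the viruses overlapped widely.

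The Q5A mutant was compared with both controls to ask whether loss of the modifiable residue changed these rows. Pmch ran from 0.753 to 381 normalised counts in Q5A with a median of 102, and from 0 to 434 in controls with a median of 63.0. Hcrt ran from 0 to 329 with a median of 32.5 in Q5A, and from 0 to 309 with a median of 32.7 in controls. Parpbp ran from 40.3 to 74106 with a median of 22950 in Q5A, and from 37.2 to 72704 with a median of 15697 in controls. The ranges of the arms were thus almost the same for each row. Against the control median of their own ZT, 28 of 39 Q5A libraries were higher in Pmch, 26 in Parpbp and 23 in Hcrt, and at no ZT were Q5A and controls apart without overlap.

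Averaged over ZT, none of the 3 genes was called in Q5A against controls at an adjusted p under 0.01. The background is small, since 0.0072% of the rows tested were called in this comparison. Pmch was 1.61-fold higher in Q5A (log2 0.69 ± 0.28 SE, with a 95% interval of 0.14 to 1.24). Its unadjusted p was 0.0142 and its adjusted p 0.668 by edgeR's quasi-likelihood test. Hcrt differed by a log2 of 0.49 ± 0.33 (fold 0.893 to 2.22, adjusted p = 0.757 by edgeR). Parpbp differed by 0.42 ± 0.40 (fold 0.776 to 2.31, adjusted p = 0.821 by edgeR). Of the 3, 1 had an unadjusted p under 0.05 by edgeR and 1 by DESeq2, and DESeq2 called none. Of all 13891 rows, 924 had an unadjusted p under 0.05 by edgeR. With the virus labels permuted within ZT on log2(normalised count + 1), an alternative chosen after the data were seen, the difference in Pmch was 0.75 with a permutation p of 0.0661, or 0.198 when adjusted over 9 tests. Over cohort 1 alone the edgeR log2 difference was 0.55 in Pmch, 0.22 in Parpbp and -0.03 in Hcrt, so that the sign for Hcrt depended on the later cohorts. Among the marker lists, those of astrocytes (3 of 3 genes higher in Q5A, median log2 0.39), midbrain dopamine neurons (3 of 3, 0.38) and the mammillary and subthalamic area (4 of 4, 0.29) were higher throughout. So were those of histaminergic neurons (5 of 5, 0.09) and neurons (4 of 4, 0.08). In the dopamine list Slc6a3 had an SE of 1.73 and En1 of 160, so their direction is not determined. Of the other lists, 3 of 4 microglia rows, 2 of 3 arcuate rows, 1 of 3 oligodendrocyte genes and 0 of 1 choroid plexus and ependyma gene were higher. The pars tuberalis and pituitary list had a median of 0.81 over 2 tested rows, of which 1 was higher in Q5A (Platr9, opposite Cga, 1.74), and its summed level reached 1262 normalised counts in a Q5A library, where the highest GFP library had 181 and the highest H3.3 library 109. No gene of these lists was called, and their part in the values of the 3 rows was not tested.

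Q5A was also set against H3.3, the vector that differs from it in the residue. Hcrt was 2.16-fold as high in Q5A (log2 1.11 ± 0.40, fold 1.24 to 3.74, unadjusted p = 0.00672 and adjusted p = 0.943 by edgeR). Pmch was 1.95-fold as high (0.96 ± 0.33, fold 1.25 to 3.06, unadjusted p = 0.00387 and adjusted p = 0.943 by edgeR), and Parpbp 1.62-fold (0.70 ± 0.46, fold 0.863 to 3.04, adjusted p = 0.943 by edgeR). Of the 3, 0 were called and 0% of all rows were, while 2 had an unadjusted p under 0.05 by edgeR and 2 by DESeq2. Of all 13891 rows, 686 had an unadjusted p under 0.05 by edgeR. In cohort 1 alone the log2 differences were 0.56 for Hcrt, 0.78 for Pmch and 0.51 for Parpbp. Some marker lists were higher in Q5A here too, with 4 of 4 genes of the mammillary and subthalamic area (median log2 0.68), 3 of 3 of midbrain dopamine neurons (0.52) and 3 of 3 of astrocytes (0.43). Neuronal genes were higher in 4 of 4 (0.04), histaminergic genes in 4 of 5 (0.04) and microglia rows in 3 of 4 (0.03). Arcuate rows were higher in 2 of 3 (0.11), pars tuberalis and pituitary rows in 1 of 2 (0.85). Oligodendrocyte genes were higher in 0 of 3 (-0.01), and choroid plexus and ependyma in 0 of 1 (-0.08). None of these was called, and their part in the values of the 3 rows was not tested. This comparison and the preceding one share the Q5A and H3.3 libraries and are not independent.

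The control viruses were compared with each other, since they are pooled in the design. Pmch had a median of 74.0 in GFP (1.6 to 432) and 33.6 in H3.3 (0 to 434). Hcrt had a median of 49.7 in GFP (0 to 309) and 22.8 in H3.3 (0 to 165), and Parpbp 19933 in GFP (37.2 to 72704) and 9474 in H3.3 (44.9 to 55849). Medians were lower in H3.3 for each row. The ranges overlapped, though for Hcrt and Parpbp the highest H3.3 library was below the highest GFP library. Relative to the GFP median of their ZT, 12 of 39 H3.3 libraries were higher in Pmch, 11 in Parpbp and 8 in Hcrt. The fitted log2 difference, H3.3 minus GFP, was -1.23 ± 0.42 for Hcrt (unadjusted p = 0.00393), -0.55 ± 0.34 for Pmch and -0.55 ± 0.48 for Parpbp, each with an adjusted p of 1.00 by edgeR. None was called, beside 0.0072% of all rows, with 1 of 3 at an unadjusted p under 0.05 by edgeR and 1 by DESeq2. Of all 13891 rows, 589 had an unadjusted p under 0.05 by edgeR. For Hcrt the difference between the 2 control viruses (-1.23) stood beside one of 1.11 for Q5A minus H3.3, and both use the H3.3 libraries. In cohort 1 alone these values were -1.17 and 0.56. Of the mammillary and subthalamic list, 0 of 4 tested genes were higher in H3.3 (median log2 -0.72). Its summed level ran from 0 to 100.2 normalised counts in GFP (median 33.5) and from 1.24 to 68.5 in H3.3 (median 13.5). Midbrain dopamine genes were higher in 0 of 3 (-0.28), pars tuberalis and pituitary rows in 0 of 2 (-0.07) and microglia rows in 1 of 4 (-0.12). Arcuate rows were higher in 1 of 3 (-0.09) and astrocyte genes in 1 of 3 (-0.04). Oligodendrocyte genes were higher in 3 of 3 (0.09), neuronal genes in 3 of 4 (0.10) and histaminergic genes in 3 of 5 (0.09). Choroid plexus and ependyma was higher in 1 of 1 (0.05). No gene of these lists was called, and their part in the difference in the 3 rows was not tested.

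**Figure D5:**
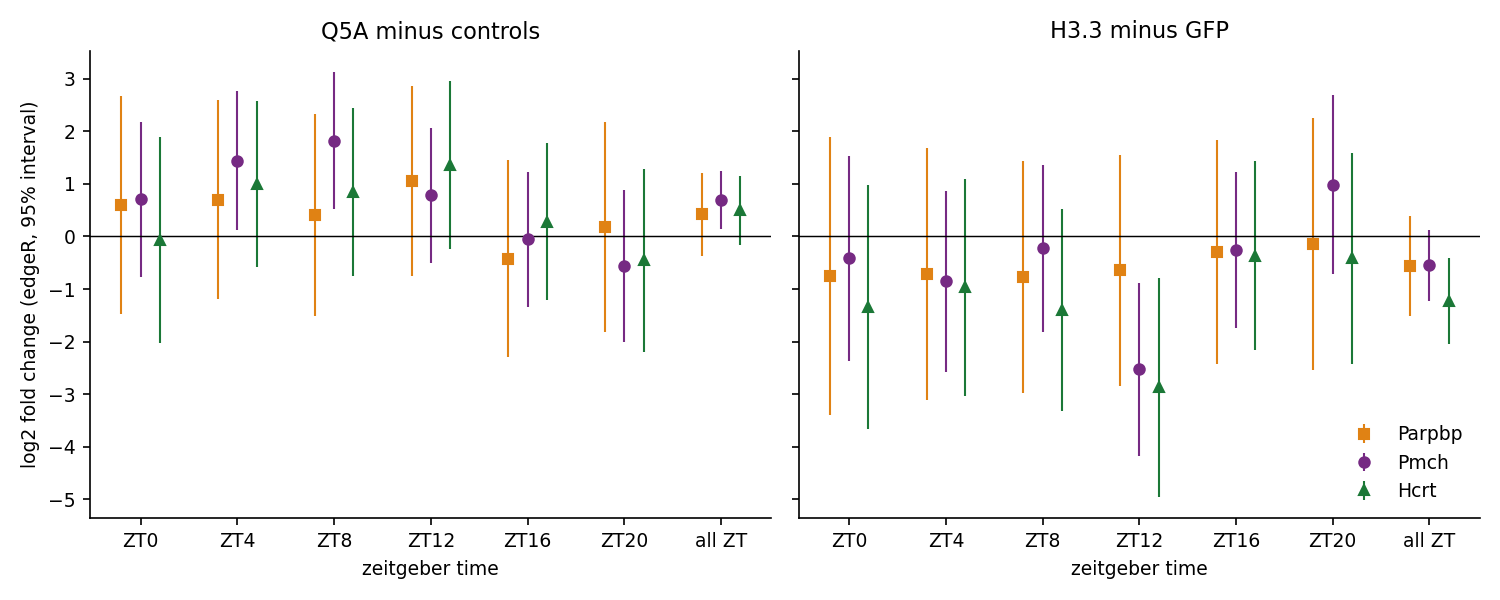
Log2 fold changes with 95% intervals from the edgeR fit for Parpbp, Pmch and Hcrt, Q5A minus controls (left) and H3.3 minus GFP (right), at each ZT and averaged over ZT. Intervals at single times mostly span several units and cross 0, and no adjusted p was under 0.01.

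At single times the precision was lower still. In H3.3 minus GFP, 0 of 18 gene by ZT tests of the 3 genes were called, beside 0% of all such tests, with 2 at an unadjusted p under 0.05 by edgeR and 2 by DESeq2. Both were at ZT12. At that time 4255 of the 13891 rows tested had an unadjusted p under 0.05 by edgeR, and DESeq2 called 353 rows, so 2 low p-values among the 3 genes are not particular to them. There, Pmch in GFP ran from 4.80 to 432 (median 94.1, n = 6) and in H3.3 from 0 to 65.8 (median 18.8, n = 7). Hcrt ran from 0 to 309 in GFP (median 16.6) and from 0 to 40.4 in H3.3 (median 1.3). The groups overlapped at their low ends, and 1 GFP library of cohort 2 set the upper end of both genes. The log2 difference was -2.53 ± 0.83 for Pmch (adjusted p = 0.0402 by edgeR) and -2.87 ± 1.05 for Hcrt (adjusted p = 0.0592 by edgeR), while Parpbp differed by -0.64 ± 1.11. With the gene share as a covariate, an alternative chosen after the data were seen, they were -0.99 for Pmch (adjusted p = 0.613 by edgeR) and -1.08 for Hcrt (adjusted p = 0.699 by edgeR). DESeq2 gave no adjusted p for either gene here. With cohort 1 alone, which leaves out that GFP library among others, the values were -2.20 for Pmch (adjusted p = 0.183 by edgeR) and -2.38 for Hcrt (adjusted p = 0.271 by edgeR).

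In Q5A minus controls, 0 of 18 tests were called, beside 0.0144% of all such tests. Of the 18, 2 had an unadjusted p under 0.05 by edgeR and 1 by DESeq2. Both edgeR tests concerned Pmch, at ZT4 and ZT8. Of the 13891 rows tested, 1425 at ZT4 and 1561 at ZT8 had an unadjusted p under 0.05 by edgeR. Low p-values at these times are thus not particular to Pmch. At ZT8 Pmch ran from 48.3 to 381 in Q5A (median 148, n = 6) and from 2.81 to 99.4 in controls (median 46.6, n = 13), so that 5 of the 6 Q5A libraries lay above every control library. The log2 difference was 1.82 ± 0.66 (fold 1.43 to 8.75), with an unadjusted p of 0.0067 and an adjusted p of 0.417 by edgeR. At ZT4 it was 1.44 ± 0.67 (adjusted p = 0.467 by edgeR; 0.97 with the gene share as a covariate), with Pmch from 23.2 to 280 in Q5A (median 121, n = 7) and from 6.23 to 172 in controls (median 21.9, n = 11). Parpbp at ZT8 differed by only 0.41 ± 0.97 and Hcrt by 0.84 ± 0.81, with adjusted p of 0.882 and 0.678 by edgeR.

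The course over the day was examined last, because activity of MCH and orexin neurons follows sleep and waking. In controls the medians of Pmch from ZT0 to ZT20, every 4 h, were 33.6, 21.9, 46.6, 19.9, 89.8 and 81.4. Hcrt followed with medians of 23.8, 12.5, 38.4, 5.37, 43.9 and 56.8 in the same order, and Parpbp with 9474, 9002, 17464, 5761, 21532 and 21846. All 3 rows had their lowest control median at ZT12 and higher ones at ZT16 and ZT20. The libraries behind them overlapped widely: at ZT12 Pmch ran from 0 to 432 and at ZT20 from 4.53 to 434.

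None of the 3 genes differed between times in controls by edgeR's F test over the 6 ZT at an adjusted p under 0.05, in a comparison that called 7.4% of all rows. The adjusted p was 0.338 for Pmch, 0.701 for Hcrt and 0.776 for Parpbp by edgeR. JTK_CYCLE, a rank test of each row against 20 wave templates with periods of 8 to 24 h, called none of the 3 in controls, beside 16.8% of rows, with an adjusted p of 0.517 for Pmch, 0.601 for Hcrt and 1 for Parpbp. No gene had an unadjusted p under 0.05 in the F test by edgeR or by DESeq2.

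In Q5A the medians of Pmch were 99.9, 121, 148, 70.6, 76.2 and 73.9 from ZT0 to ZT20. Those of Hcrt were 20.8, 29.2, 80.2, 57.6, 32.5 and 9.46, and those of Parpbp 25512, 22950, 28234, 9395, 20997 and 22995. Each row was highest at ZT8 by its median, a time at which controls were intermediate. The F test called none of the 3 in Q5A (adjusted p = 0.910 for Pmch, 0.969 for Hcrt and 0.992 for Parpbp by edgeR), beside 0.324% of rows, and JTK_CYCLE gave an adjusted p of 1 for each, beside 4.54% of rows called. The interaction, which asks whether the course over the day differs between Q5A and controls, gave an adjusted p of 0.720 for Pmch, 0.902 for Hcrt and a higher one for Parpbp by edgeR. None was called, beside 0.0576% of all rows. These F tests give no interval for the size of a difference between times. The calls depended on the filter on low counts: without it, the edgeR adjusted p for ZT in controls was 2.05e-07 for Pmch, 0.00701 for Parpbp and 0.00391 for Hcrt.

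The lists of genes of the 2 neuron types were counted in the same tests. Of the 6 MCH-neuron genes and the 6 tested orexin-neuron genes, 0 were called by edgeR in any of the 3 virus comparisons, in the ZT tests or in the interaction. The shares of all rows called were 0.0072%, 0% and 0.0072% for virus, 7.4% and 0.324% for ZT and 0.0576% for the interaction, so that 0 of 6 is no result about these lists. JTK_CYCLE called 0 of either list in controls, beside 16.8% of rows, and 1 of 6 MCH-neuron genes in Q5A, beside 4.54% of rows, Nucb2 (adjusted p = 0.0218), the precursor of nesfatin, named after its value was seen. In Q5A minus controls, the median log2 difference was 0.16 for the MCH-neuron genes, with 6 of 6 above 0, and 0.19 for the orexin-neuron genes, with 5 of 6 above 0. Over all rows tested the median was 0.01, with 7304 of 13891 above 0. In H3.3 minus GFP the medians were -0.15 for the MCH-neuron genes, with 1 of 6 above 0, and -0.24 for the orexin-neuron genes, with 1 of 6 above 0, beside 0.01 over all rows. Slc17a6 and Scg2 stand in both lists, and all of these genes were read in the same libraries.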

How the data were processed

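RNA-seq counts were taken as deposited. Per the submitters' processing notes and the methods of the study, the authors demultiplexed with bcl2fastq, aligned polyadenylated-RNA reads to GRCm38 with STAR 2.7.11b and made raw counts per gene name with HTSeq 2.0.5 (union mode, stranded option yes, mapping quality at least 10). The 5 entries for unassigned reads were kept out of library sizes and tests. Of 111 libraries, 2 differed by less than sampling noise (replicates 2 and 3 of Q5A ZT4, cohort 2, in which 3 rows and 6 reads differed) and were averaged as 1. Another 18 files matched no sample and were used in no step.

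Groups came from the sample labels, and per the methods of the study tissue was not pooled across animals, so p-values measure the spread between animals. A means model of the 18 groups was fitted with edgeR 4.0.16 in R 4.3.3 (TMM, filterByExpr with minimum count 10 and total 15, prior count 2, quasi-likelihood F test, Benjamini-Hochberg over 13891 rows), with calls at an adjusted p under 0.01 for virus and 0.05 for ZT. Normalised counts are counts over median-of-ratios size factors from 9428 rows. JTK_CYCLE was reimplemented in Python 3.11.15 with scipy 1.17.1 and numpy 2.4.6, and its adjusted p covers the templates and not the number of rows. Fits were tested on simulated data with less spread than the 3 genes had, so that test does not cover spread as wide as theirs. DESeq2 1.42.0 was an alternative. Positions are from GENCODE M21.

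The genes, lists and comparisons were chosen with earlier results of these data known. Named genes were the 3 members, genes that overlap them, the 10 rows of highest Spearman rho with each over all libraries, and up to 4 genes of most reads per list. Hdc, Qrfp, Nucb2 and Platr9 fall outside this rule and were named after their values were seen. Counting error limits rows with few reads, and the spread between libraries limits the rest.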

Additional observations from a re-analysis of the deposited data

Results flagged for a closer look

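In 10 of 54 gene by group checks (18.5%), the highest library stood apart from the rest of its group by Dixon's criterion. The criterion flags about 1 group in 20 when values are normally distributed. Normalised counts here were skewed, with the SD over the mean in 11 groups for Hcrt, 7 for Pmch and 6 for Parpbp. The 3 rows were also read in the same libraries, so the share flagged cannot be set against 1 in 20. The 10 cases came from 5 libraries. In GFP ZT12, replicate 1 of cohort 2 had 432 normalised counts of Pmch where the next library had 147, and 309 of Hcrt where the next had 98.7. In H3.3 ZT0, replicate 1 of cohort 1 stood apart in all 3 genes, with 128 of Pmch (next 33.6), 44098 of Parpbp (next 9474) and 93.5 of Hcrt (next 23.8). In H3.3 ZT12, replicate 1 of cohort 2 had 65.8 of Pmch (next 24.1) and 40.4 of Hcrt (next 7.10). In H3.3 ZT4, replicate 2 of cohort 1 had 55849 of Parpbp (next 12565). In Q5A ZT12, replicate 1 of cohort 3 had 69764 of Parpbp (next 26023) and 329 of Hcrt (next 86.3).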

How the results depend on the processing

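Of 360 alternative values for 27 results on the 3 genes, 11 changed a call and 1 changed sign. The sign change was Hcrt in Q5A minus controls, -0.025 over cohort 1 only. All 11 came from fitting without a filter on low counts (36018 rows), where the prior degrees of freedom rose from 12.6 to 1123 and the shrunken dispersion of Parpbp fell from 26.1 to 3.18. The log2 differences hardly moved there: Hcrt -1.25 in H3.3 minus GFP (adjusted p = 2.1e-11, edgeR), Pmch 0.99, Parpbp 0.72 and Hcrt 1.14 in Q5A minus H3.3, and Pmch 0.70 in Q5A minus controls. Its edgeR adjusted p for ZT in controls was 2.05e-07 for Pmch, 0.00701 for Parpbp and 0.00391 for Hcrt, for ZT in Q5A 0.0106 for Pmch, and for the interaction 2.11e-07 for Pmch and 0.0249 for Hcrt. At single ZT it called 2 tests in H3.3 minus GFP and 3 in Q5A minus controls, against 0. Leaving out each replicate number gave 0.54 to 0.84 for Pmch in Q5A minus controls. The replicate block gave 0.60 for Pmch in Q5A minus controls (adjusted p = 0.661) and -1.42 for Hcrt in H3.3 minus GFP (adjusted p = 0.212), and changed no call on the 3 genes. Same-numbered libraries had a median correlation of 0.0127, and 24% of pairs were over 0.1, so the numbers were not taken as pairs. Counts over all rows moved more, and the cause was not tested: Q5A minus controls 1 to 45 (cohort 1 only), 18 (cohort as a covariate) and 17 (replicate block); H3.3 minus GFP 1 to 18, 13 and 11; Q5A minus H3.3 0 to 1 with DESeq2; ZT in controls 1028 to 2721 in cohort 1 and 165 without replicate 1; ZT in Q5A 45 to 469 in cohort 1; the interaction 8 to 755 in cohort 1 and 0 with the gene share as a covariate, which was chosen after the data were seen. Without the filter these 6 counts were 41, 25, 42, 2028, 515 and 457.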
